A study of Mus musculus with 8 samples.

Results

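The DEAD and DEAH box RNA helicase genes were taken as the protein-coding autosomal mouse genes whose symbol is Ddx or Dhx followed by digits. There were 51 of them, 35 with Ddx and 16 with Dhx symbols; 2 such genes on the sex chromosomes, Ddx3x and Ddx3y, were left out. Of the 51 genes, 48 had at least 1 m6A peak, among 13110 gene identifiers with a peak in all. The peaks come from mouse embryonic stem cells that carry a doxycycline (Dox)-inducible knockdown of Setd2, whose product trimethylates lysine 36 of histone H3. Control cells carried the same construct and got no Dox, while Dox cells got 1 µg/ml Dox for 4 days; all grew without feeders as spheres in 2i medium with LIF at 1000 U/ml, the GSK3 inhibitor CHIR99021 at 3 µM and the MEK inhibitor PD0325901 at 1 µM. Each condition had 2 replicates of immunoprecipitated RNA (IP, with an antibody to m6A) and 2 of input RNA, 8 libraries in all. Dox-treated cells without the construct were not analysed here, so Dox itself and the knockdown cannot be told apart.

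DEAD and DEAH box proteins use ATP to unwind or remodel RNA and to strip proteins from it, and are named after a short amino acid motif of their helicase core. They drive the steps of the spliceosome, the assembly of ribosomes in the nucleolus, and the export, translation and decay of messenger RNA, so nearly every dividing cell makes most of them. N6-methyladenosine (m6A) is a methyl mark placed on messenger RNA by the METTL3 and METTL14 methyltransferase, mostly at sites with the core letters GGAC, and is read by proteins that act on splicing, stability and translation.

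The authors called peaks once per condition on all 4 of its libraries, which gave 25815 control and 27612 Dox peaks. A value per replicate was not analysed here, so there is no replicate error for any number below, no test between the conditions was made, and the depth is unknown. The fold of a peak is the authors' ratio of IP over input, and its strength is the log10 of its false discovery rate (FDR), where lower means stronger; both are values within 1 list and are not divided between lists. Peaks were called on 10 of 10 naive stem cell markers in both lists, on 1 of 5 fibroblast markers (Col1a1) and on 4 of 6 differentiation markers, each of these in 1 list alone, and a peak list gives no expression level. Setd2 had 10 control and 6 Dox peaks, which does not measure the knockdown. A gene without a peak may lack the mark or the RNA, and these cannot be told apart.

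Peaks at the start of helicase transcripts are shown first with their sequence, because the control list held more 5′ end peaks than the Dox list (values below). The stretches were picked by promoter window, so those of Ddx27, Ddx28, Ddx54, Ddx56 and Dhx32 are not from the 5′ end peaks counted below. On Ddx54 the control peak counted there is another one, upstream of the printed stretch. The starts used for Ddx56 and Dhx32 lie inside the gene. The stretches are the parts of control peaks that lie within the promoter window of RefSeq (GRCm38.p6, 250 bases before to 50 after the start), on the gene's strand from 5′ to 3′, with GGAC in capitals. The first 4 belong to control peaks that no Dox peak overlapped, and the last 5 to control peaks with a Dox counterpart, 3 chosen because they hold GGAC and 2 because their folds were among the highest of the family.
Ddx28, chr8:106011466-106011614, minus strand: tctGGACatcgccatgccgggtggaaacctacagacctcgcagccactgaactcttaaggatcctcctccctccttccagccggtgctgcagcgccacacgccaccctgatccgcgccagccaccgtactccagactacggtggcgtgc
Dhx33, chr11:71004383-71004437, minus strand: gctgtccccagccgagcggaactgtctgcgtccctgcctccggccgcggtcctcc
Ddx55, chr5:124552894-124552913, plus strand: gcgggcgactgaaacccgca
Dhx32, chr7:133776754-133776773, minus strand: acgggcgggagtggcgcagg
Ddx56, chr11:6267680-6267772, minus strand: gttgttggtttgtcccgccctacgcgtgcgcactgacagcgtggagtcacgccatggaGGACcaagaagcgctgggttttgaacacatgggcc
Ddx27, chr2:167015253-167015362, plus strand: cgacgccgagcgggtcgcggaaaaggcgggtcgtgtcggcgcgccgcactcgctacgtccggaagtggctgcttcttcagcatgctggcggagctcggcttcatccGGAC
Ddx54, chr5:120613098-120613179, plus strand: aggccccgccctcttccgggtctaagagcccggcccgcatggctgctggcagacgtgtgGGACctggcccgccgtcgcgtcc
Ddx51, chr5:110653451-110653500, plus strand: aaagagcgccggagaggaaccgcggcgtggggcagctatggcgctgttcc
Ddx42, chr11:106216956-106216975, plus strand: cccagtcagcaacgggccgt

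Over all helicase control peaks that reach a promoter window, GGAC occurred on the RNA strand in the stretch of 1 of the 4 unmatched peaks (Ddx28) and of 4 of the 12 matched ones (Ddx5, Ddx27, Ddx54 and Ddx56), so most stretches of either kind held none. The GGAC of the Ddx28 stretch lies upstream of the RefSeq start of Ddx28. GTCC, the reverse complement of GGAC, was present in 1 of the 4 and 5 of the 12. Among all 32851 promoter windows, 65.6% held GGAC on the RNA strand and 66.1% GTCC, against 66.1% and 76.8% of the 56 windows of the helicase genes. In stretches of the same length and offset from the start, GGAC was present in 41.3% of all windows for the Ddx28 stretch, 30.2% for Ddx56, 34.4% for Ddx27, 27.4% for Ddx54, 20.3% for Dhx33, 18.9% for Ddx51 and 7.64% for the 20-base stretches of Ddx55, Dhx32 and Ddx42. For GTCC these shares were 18.6% for Dhx33, 29.3% for Ddx56, 33.4% for Ddx27 and 26.3% for Ddx54. A match describes letters and is not a mapped site, since the peaks are wider than a single adenosine.

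The m6A peaks on the helicase family were largely the same genes in both conditions. Of the 48 genes with a peak, 47 had peaks in both lists (97.9%, 95% interval 88.9 to 99.9), 1 had a control peak alone, and 0 had Dox peaks alone. Among all identifiers with a peak, 79.9% were in both lists, 8.92% in control alone and 11.1% in Dox alone. The gene with a control peak alone was Dhx58, which encodes LGP2, a cytoplasmic sensor of viral RNA, and its peak was weak (fold 5.33, log10 FDR -2.03). The 3 genes without a peak were Ddx4 and Ddx25, both helicases of the germ line, and Ddx60, an antiviral helicase.

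Helicase peaks were stronger than the peaks of their lists as a whole, at similar folds. A log10 FDR of -20 or less was reached by 56.6% of the 136 control and 55.5% of the 128 Dox helicase peaks, against 34.6% and 27.8% of all peaks. At least 1 such peak was carried by 37 of 48 helicase genes in control and 37 of 47 in Dox, against 47.7% and 41.7% of identifiers with a peak. The median fold of helicase peaks was 4.67 in the control list (all peaks 4.62) and 3.9 in the Dox list (all peaks 3.51). A fold of at least 4 was found for 79 of 136 control peaks (58.1%, all 57.8%) and 62 of 128 Dox peaks (48.4%, interval 39.5 to 57.4, all 41.3%). A fold of 8 or more was found for 35 of 136 control peaks (25.7%, all 26.8%) and for 7 of 128 Dox peaks (5.47%, interval 2.23 to 10.9, all 9.4%). The helicase genes had a median of 3 peaks per list, against 2 over all identifiers, and at most 7.

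**Figure D1:**
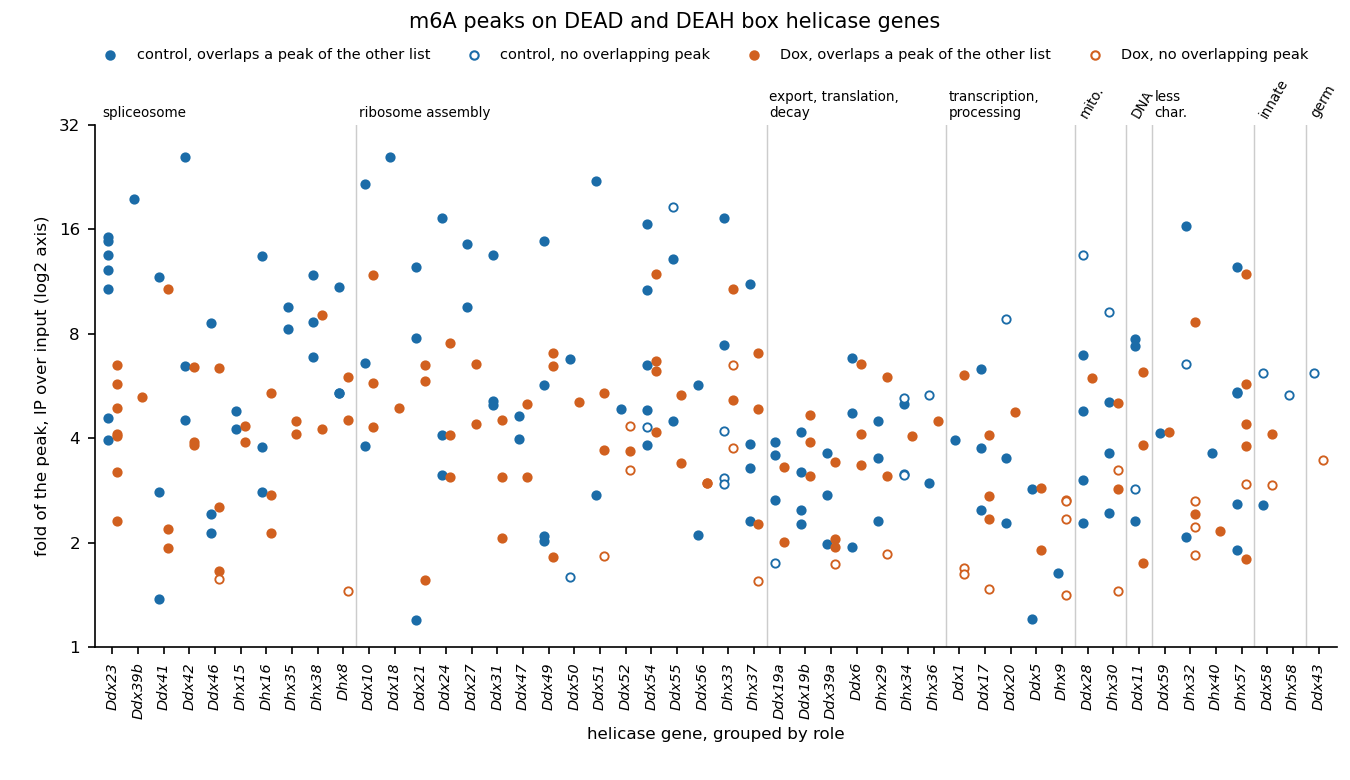
Fold of every m6A peak (IP over input, log2 axis) on the 48 helicase genes with a peak, 1 column per gene, grouped by role; blue points are control peaks, orange points Dox peaks, and open points overlap no peak of the other list. Control folds reach 25.8 on Ddx18 and Ddx42 and Dox folds 11.9 on Ddx54 and, in a weak call (log10 FDR -4.87), on Dhx57, and most open Dox points lie low in the plot.

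Most helicase peaks overlapped a peak of the other condition by at least 1 exonic base on the same strand. No Dox counterpart was found for 18 of 136 control peaks (13.2%, interval 8.04 to 20.1), against 19.3% of all control peaks. No control counterpart was found for 24 of 128 Dox peaks (18.8%, interval 12.4 to 26.6), against 29.1% of all Dox peaks. All control peaks were matched on 33 of 48 genes and all Dox peaks on 31 of 47, while 35.3% of identifiers had an unmatched control peak and 47.8% an unmatched Dox peak. On 22 genes every peak of both lists was matched, which was not counted over all identifiers. Among peaks with folds of at least 4 in both lists the order turned, with 30.4% of control peaks (all 45.7%) and 16.1% of Dox peaks (all 31.6%) unmatched.

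The share of unmatched peaks was lower among stronger peaks, and 14 of the 18 unmatched control and 15 of the 24 unmatched Dox peaks had a log10 FDR above -5. In that class, 14 of 29 control peaks were unmatched (48.3%, all control peaks of that strength 40.4%), from -5 to -20 it was 3 of 30 (10%, all 14.8%), and at -20 or less 1 of 77 (1.3%, all 1.36%). Of Dox peaks, 15 of 22 were unmatched in the weakest class (68.2%, all 52.1%), 8 of 35 in the middle class (22.9%, all 20%) and 1 of 71 in the strongest (1.41%, all 2.8%). Within each class the share of all peaks lay inside the 95% interval of the helicase share. Once the weakest class is set aside, 4 of 107 control peaks (3.74%, all 7.56%) and 9 of 106 Dox peaks (8.49%, all 11.6%) had no counterpart anywhere in the other list. The strongest unmatched peaks were 1 control peak on Ddx20 and 1 Dox peak on Dhx9, described below. An unmatched peak can lie beside a peak of the other list: 2 of the 18 control and 1 of the 24 Dox peaks were within 100 nt of one.

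**Figure D2:**
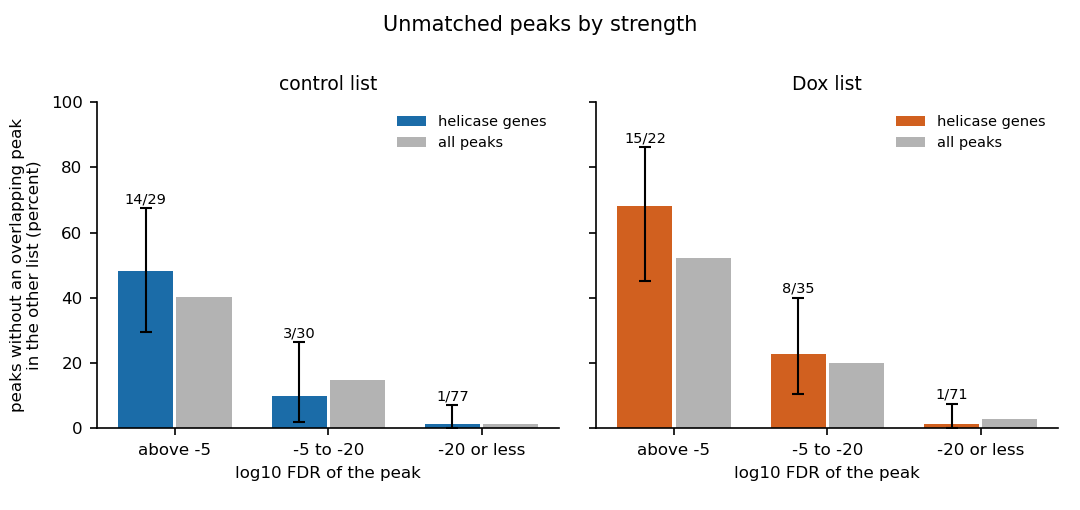
Percentage of peaks that overlap no peak of the other list, by the log10 FDR of the peak, for helicase genes (coloured bars, with 95% exact intervals and counts above) and for all peaks of the list (grey bars). The share falls from 48.3% to 1.3% in the control list and from 68.2% to 1.41% in the Dox list, and each grey bar ends inside the interval of the coloured bar beside it.

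On the spliceosome helicases every control peak was matched. All 30 control peaks on the 10 genes (Ddx23, Ddx39b, Ddx41, Ddx42, Ddx46, Dhx8, Dhx15, Dhx16, Dhx35 and Dhx38) overlapped a Dox peak, so 0 of 30 were unmatched, which allows a share of up to 10% (all control peaks 19.3%). Of their 30 Dox peaks, 2 were unmatched (all Dox peaks 29.1%), 1 on Ddx46 (fold 1.57) and 1 on Dhx8 (fold 1.45). Of the control peaks, 27 were at -20 or less in log10 FDR, a class in which 1.36% of all control peaks were unmatched, and 24 of the Dox peaks were. With the shorter lists 1 of 29 of these control peaks was unmatched (all control peaks 24%). With folds of at least 4 in both lists it was 4 of 23 (all 45.7%).
Ddx23, which helps hand the donor splice site to the catalytic spliceosome, had the most peaks of the family, 7 in each list. Its control peaks had folds of 4.58, 3.96, 15.2, 14.8, 12.2, 10.8 and 13.5 from the 3′ to the 5′ side, and its Dox peaks had folds of 3.19, 2.31, 6.49, 4.05, 4.11, 5.75 and 4.88. Every control peak paired with 1 Dox peak, and 5 neighbouring peaks in the middle and 5′ part of the gene were the highest in the control list.
Ddx42, a helicase that acts with the branch site complex, had its highest control fold at the 5′ end (25.8, log10 FDR -24.6), where the overlapping Dox peak had a fold of 3.9 (log10 FDR -20.6). In the Dox list its highest fold was at the other end of the gene (6.44, log10 FDR -122), where the control peak had 6.48 (log10 FDR -142).
Ddx39b, which acts in early spliceosome assembly and in mRNA export, had 1 peak per list, in control with a fold of 19.6 (FDR listed as 0) and in Dox with a fold of 5.25 (log10 FDR -105). Ddx41, a helicase of the late spliceosome, had a fold of 11.7 in control and 10.8 in Dox over its 5′ part, and 2 further peaks in each list with folds from 1.38 to 2.81. Dhx38, which drives remodelling between the splicing steps, had 2 control peaks (folds 8.66 and 11.8) under 1 Dox peak of 2099 exonic nt (fold 9.06). Its other control peak (fold 6.87) was matched by its other Dox peak (fold 4.25). Dhx15, which takes spent spliceosomes apart, had 2 peaks per list, all with folds between 3.91 and 4.78.

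The 16 ribosome assembly helicases had high top control folds, but not alone among the groups. Their top control fold per gene had a median of 14.7, against 9.02 over the 48 helicase genes and 7.14 over all identifiers. In the Dox list the medians were 5.96, 5.34 and 4.7. The control median was 11.8 for the spliceosome helicases. Among the lists described below it was 14.8 (superfamily 1), 11.2 (G-patch) and 8.23 (other superfamily 2). It was 7.31 for MIF4G and other cofactors and 3.48 for DEAD box genes with other symbols. Over single control peaks the median fold of the ribosome assembly group was 5.05 (all peaks 4.62). The top control fold of Ddx31 was a weak call (13.5, log10 FDR -2.68). Unmatched were 6 of 46 control peaks (13%, interval 4.94 to 26.3, all 19.3%) and 6 of 43 Dox peaks (14%, interval 5.3 to 27.9, all 29.1%). The group comprised Ddx10, Ddx18, Ddx21, Ddx24, Ddx27, Ddx31, Ddx47, Ddx49, Ddx50, Ddx51, Ddx52, Ddx54, Ddx55, Ddx56, Dhx33 and Dhx37, nucleolar proteins of the small or large subunit pathway, and all 16 had peaks in both lists.
Ddx18, a helicase of large subunit assembly, had 1 control peak with a fold of 25.8 (log10 FDR -256) and 1 Dox peak with a fold of 4.9 (log10 FDR -162) over nearly the same exons. Ddx10, of the small subunit pathway, had 3 matched peaks with folds of 6.61, 21.6 and 3.81 in control and 5.78, 11.8 and 4.3 in Dox. The middle peak was the highest of Ddx10 in both lists, and its bounds and those of the 5′ peak were the same in both.
Ddx54, which acts on the large subunit and on nuclear receptors, had 6 control peaks with folds from 3.83 to 16.6 and 4 Dox peaks with folds from 4.17 to 11.9. Its Dox peak at the 5′ end spanned 2 control peaks. The upstream one lay wholly before the RefSeq start of the gene, with 88.3% of its length in the promoter window and no GGAC there. The single unmatched control peak of Ddx54 (fold 4.31, log10 FDR -2.6) began 29 nt after the end of a Dox peak.
Ddx51 had a 5′ end peak with a fold of 22.1 in control (log10 FDR -117) and 5.42 in Dox (log10 FDR -11.9), and Ddx49 one with a fold of 5.69 in control (log10 FDR -56) and 7.05 in Dox (log10 FDR -20.3); both belong to ribosomal RNA processing. These 2 genes differed in their order: the 5′ end peak was the highest control peak on Ddx51, while on Ddx49 the highest control peak lay at the 3′ end (fold 14.8) and the highest Dox peak at the 5′ end.
Ddx55, a large subunit helicase, had a control peak at the 5′ end with a fold of 18.5 (log10 FDR -5.38) and no Dox counterpart, and its nearest Dox peak was 2302 nt away. Its other 2 control peaks (folds 4.48 and 13.1) were matched by Dox peaks with folds of 3.4 and 5.34. The fold of 18.5 rests on a weak call, and without that peak the highest control fold of Ddx55 is 13.1.
Dhx33, which promotes ribosomal RNA synthesis, was the least matched gene of the group, with 3 of 5 control and 2 of 4 Dox peaks unmatched. A control peak (fold 2.95, log10 FDR -3.91) and a Dox peak (fold 6.51, log10 FDR -2.43) in the middle of the gene lay 29 nt apart, and another such pair near the 3′ end (folds 3.08 and 3.75) lay 448 nt apart. The 5′ end control peak of Dhx33 (chr11:71004227-71004437, fold 4.2, log10 FDR -5.05) was 4561 nt from the nearest Dox peak of the gene. Its highest folds, 17.2 in control and 10.8 in Dox, belonged to weak but overlapping peaks (log10 FDR -3.21 and -3.8).

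**Figure D3:**
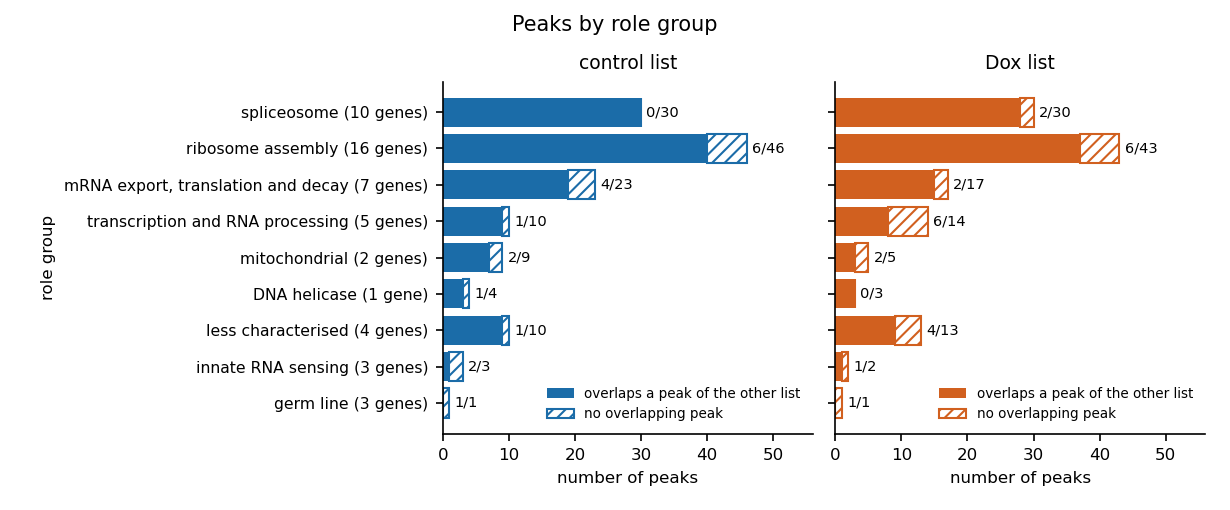
Number of m6A peaks per role group of helicase genes in the control list (left) and the Dox list (right); filled bars are peaks that overlap a peak of the other list, hatched bars are peaks that do not, and the labels give unmatched over all peaks. The spliceosome group has 0 unmatched of 30 control peaks (all control peaks 19.3%). The transcription group has 6 unmatched of 14 Dox peaks (interval 17.7 to 71.1%, all Dox peaks 29.1%), 3 of them on Dhx9.

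The helicases of mRNA export, translation and decay had lower top folds than the family. The 7 genes (Ddx6, Ddx19a, Ddx19b, Ddx39a, Dhx29, Dhx34 and Dhx36) had a median top fold of 4.5 in control and 4.48 in Dox (family 9.02 and 5.34), with 4 of 23 control (17.4%, interval 4.95 to 38.8, all 19.3%) and 2 of 17 Dox peaks (11.8%, interval 1.46 to 36.4, all 29.1%) unmatched. Ddx19a and Ddx19b, export factors at the nuclear pore, are neighbouring copies of each other, so how reads were shared between them is uncertain. Ddx39a, an export helicase close in sequence to Ddx39b, had 3 matched pairs of peaks and 1 further Dox peak between them (fold 1.74, log10 FDR -6.01), 179 nt from a control peak. Dhx34, which acts in nonsense-mediated decay, and Dhx36, which resolves G-quadruplexes, had 2 of 4 and 1 of 2 control peaks unmatched, all with a log10 FDR above -5; these were named after their values were seen.

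The helicases of transcription and RNA processing had a median top fold of 3.96 in control and 4.08 in Dox. Over Ddx1, Ddx5, Ddx17, Ddx20 and Dhx9, 1 of 10 control peaks (all 19.3%) and 6 of 14 Dox peaks (42.9%, interval 17.7 to 71.1, all 29.1%) were unmatched, and all 6 of these Dox peaks passed a log10 FDR of -5.
Dhx9 (ENSMUSG00000042699.11), which unwinds RNA and RNA-DNA hybrids during transcription, had 1 control peak near its 3′ end (fold 1.64, log10 FDR -6.36). In the Dox list that peak had a fold of 2.66 (log10 FDR -23.3), and 3 more were listed. The strongest of these (chr1:153456536-153457702, fold 2.64, log10 FDR -56.1) lay 298 nt from the control peak, and the other 2 had folds of 1.42 and 2.34 (log10 FDR -7.47 and -7.74). All 4 Dox folds of Dhx9 were below the Dox list's median of 3.51.
Ddx20 (ENSMUSG00000027905.15), a component of the complex that loads Sm proteins on small nuclear RNAs, had the strongest unmatched control peak. It lay at the 5′ end (chr3:105687127-105687455, minus strand, fold 8.81, log10 FDR -27.1), and the nearest Dox peak of the gene was 7784 nt away. The 2 control peaks at the 3′ end of Ddx20 (folds 3.5 and 2.28) were both covered by 1 Dox peak of 1013 nt (fold 4.75).
Ddx1, a helicase of transfer RNA ligation and RNA processing, had 1 control peak (fold 3.96) that overlapped a Dox peak (fold 6.07), and 2 Dox peaks without counterpart (folds 1.69 and 1.63, log10 FDR -8.5 and -6.76). Ddx17 and Ddx5, paired co-regulators of transcription and splicing, had matched control peaks throughout. Ddx17 had 1 extra Dox peak with a low fold (1.47, log10 FDR -12.2), while its highest peak was a different one in each list, with a fold of 6.32 in control and 4.08 in Dox.

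Ddx28 and Dhx30, helicases of mitochondrial ribosome assembly, had 2 of 9 control peaks (22.2%, interval 2.81 to 60, all 19.3%) unmatched. Of their Dox peaks, 2 of 5 were unmatched (40%, interval 5.27 to 85.3, all 29.1%). Ddx28, a gene of 1871 nt, had 5 control peaks with folds of 4.79, 2.28, 6.93, 3.04 and 13.5 from the 3′ to the 5′ side, while its Dox list held 1 peak of 1667 nt with a fold of 5.95 that overlapped 4 of them. The fifth, at the 5′ end, is the stretch printed above, and its high fold came from a weak call (log10 FDR -2.31). Dhx30 had its highest control fold, 9.23, in a weak unmatched peak at the 5′ end (log10 FDR -2.85), and a matched peak with a fold of 5.1 in control and 5.05 in Dox.
Ddx11, a DNA helicase of sister chromatid cohesion, had 3 matched peaks with folds of 7.71, 7.38 and 2.31 in control and 6.22, 3.82 and 1.75 in Dox, and an unmatched control peak at the 5′ end (fold 2.85, log10 FDR -5.48). Of the less characterised genes, Ddx59 and Dhx40 had 1 matched peak per list. Dhx57 had 5 matched pairs and 1 further Dox peak, with its highest fold at 12.5 in control and 11.9 in Dox on neighbouring peaks, of which the Dox one was a weak call (log10 FDR -4.87). Dhx32 had a peak with a fold of 16.4 in control and 8.68 in Dox, a weak unmatched control peak at an internal start (printed above, fold 6.56), and 3 unmatched Dox peaks, the strongest with a fold of 2.64 (log10 FDR -7.13).
Genes of innate sensing and the germ line had few and weak peaks. Ddx58, which encodes the viral RNA sensor RIG-I, had 2 peaks per list, of which 1 pair overlapped (folds 2.57 in control and 4.11 in Dox). Ddx43, a germ line helicase, had 1 peak per list (folds 6.15 and 3.47), and these lay 4934 nt apart.

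Control peaks at the 5′ end of helicase genes outnumbered Dox peaks there, in the same proportion as over all peaks. A midpoint within 500 nt of the 5′ end was found for 18 of 131 placed control peaks (13.7%, interval 8.35 to 20.8, all 13.3%) and 10 of 127 placed Dox peaks (7.87%, interval 3.84 to 14, all 7.83%). Both lists had a 5′ end peak on 9 genes, control alone on 9 (Ddx1, Ddx11, Ddx20, Ddx43, Ddx55, Dhx30, Dhx33, Dhx36 and Dhx57) and Dox alone on 1, Dhx29. Such gene counts were not made over all identifiers. Of the 18 control peaks 7 had no Dox counterpart (38.9%, all 38.8%), and of the 10 Dox peaks 1 had no control counterpart (10%, all 14.5%). On Ddx1 and Dhx57 the control 5′ peak was overlapped by a longer Dox peak that was placed farther in. The 9 genes with both were Ddx10, Ddx17, Ddx31, Ddx39a, Ddx42, Ddx49, Ddx51, Ddx54 and Dhx15.
Away from the 5′ end, the unmatched share was higher among Dox than among control peaks. Between the ends, 7 of 93 control peaks (7.53%, interval 3.08 to 14.9, all 16.2%) and 19 of 99 Dox peaks (19.2%, interval 12 to 28.3, all 30.2%) were unmatched. Within 1000 nt of the 3′ end it was 3 of 20 control (15%, all 11.1%) and 4 of 18 Dox peaks (22.2%, all 31.6%). Counting instead every peak with a base within 200 nt of the 5′ end, which takes in long peaks such as those of Ddx18, Ddx21, Ddx23, Ddx27 and Ddx41, gave 26 of 131 control peaks (19.8%, all 14.1%) and 17 of 127 Dox peaks (13.4%, all 9.59%), of which 6 (23.1%, all 30.4%) and 1 (5.88%, all 12.2%) were unmatched.

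**Figure D4:**
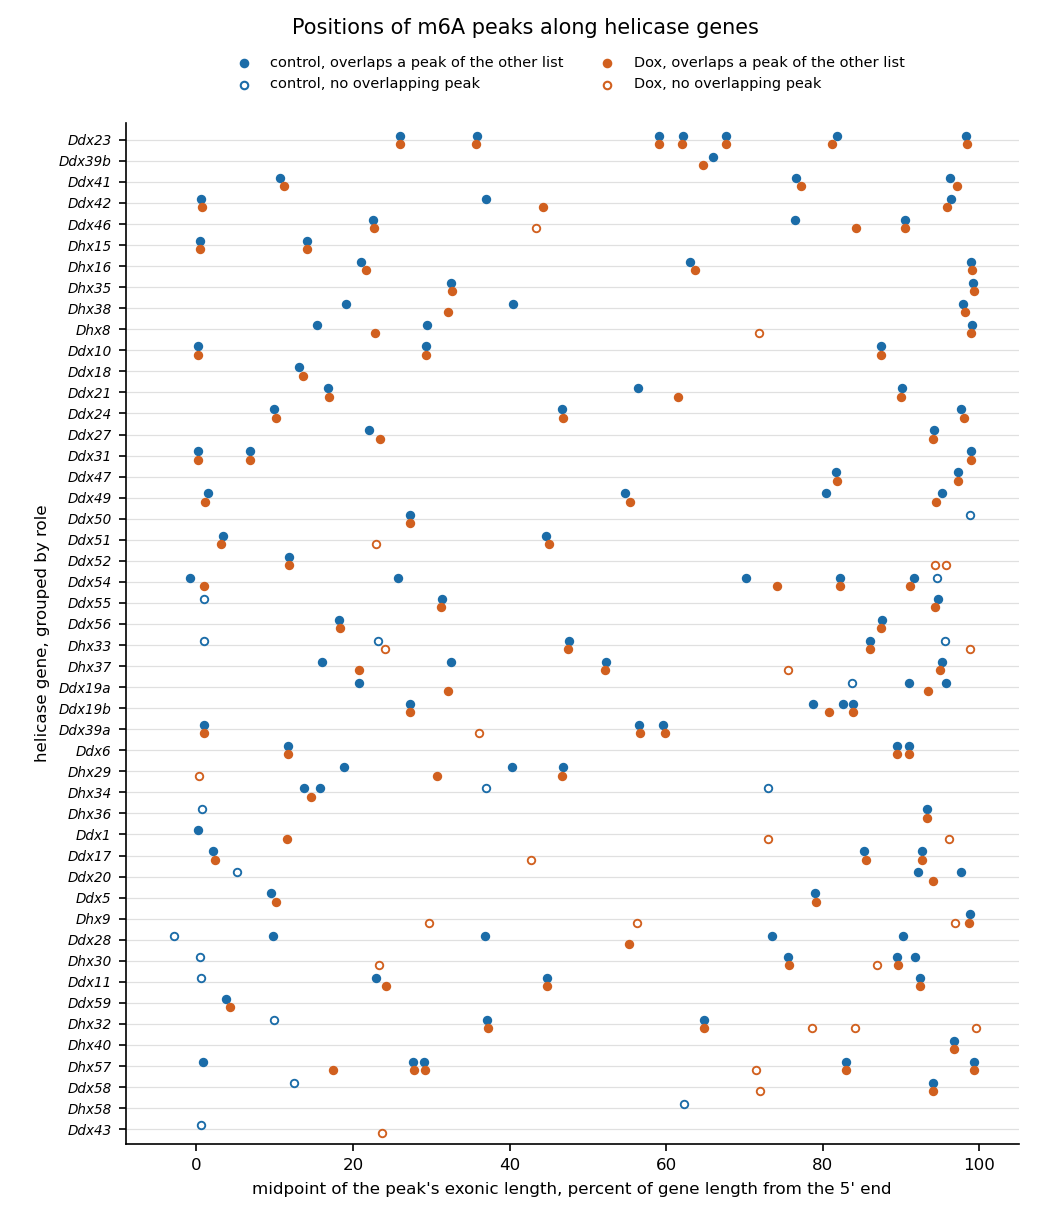
Midpoints of m6A peaks along each helicase gene, in percent of the gene's length from the 5′ end; blue points are control peaks and orange points Dox peaks, and open points overlap no peak of the other list. At the 5′ end of placed genes there are 7 open blue points and 1 open orange point, on Dhx29.

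Helicase peaks were longer than average in both lists, and Dox peaks more often joined control peaks than the reverse. The median exonic width was 270 nt in control (all 211 nt) and 330 nt in Dox (all 240 nt), and 53.7% of control and 65.6% of Dox helicase peaks ran over more than 1 exonic block (all 41.2% and 42.7%). A Dox peak overlapped 2 or more control peaks in 12 of 128 cases (9.38%, interval 4.94 to 15.8, all 8.18%), among them those of Ddx20, Ddx28, Ddx49, Ddx54, Dhx30 and Dhx38. No control peak on a helicase gene overlapped 2 or more Dox peaks: it was 0 of 136, which allows a share of up to 2.21%, against 4.93% of all control peaks. In 12 cases a control and a Dox peak had the same bounds. Numbers of peaks per gene were equal in 25 genes, higher in control in 14 and higher in Dox in 9, which was not counted over all identifiers.

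In the full tables DEAH box genes had larger unmatched shares than DEAD box genes, with overlapping intervals. Unmatched were 9 of 90 control peaks on Ddx genes (10%, interval 4.68 to 18.1) and 9 of 46 on Dhx genes (19.6%, interval 9.36 to 33.9), against 19.3% of all control peaks. For Dox peaks it was 10 of 83 (12%, interval 5.93 to 21) and 14 of 45 (31.1%, interval 18.2 to 46.6), against 29.1% of all Dox peaks. The control order turned with the shorter lists (9.46% Ddx, 9.09% Dhx, all 24%) and with folds of at least 4 in both (30.8% and 29.6%, all 45.7%). That order also turned without the control peaks of the weakest class (4.05% and 3.03%, all 7.56%). It did not turn with a log10 FDR of -5 or less asked of both lists. For Dox peaks the Dhx share stayed the larger with the shorter lists and without the Dox peaks of the weakest class. The strongest class (log10 FDR of -20 or less) held 55 of 90 control peaks on Ddx genes and 22 of 46 on Dhx genes. Among the strongest peaks 1 of 55 control peaks on Ddx and 0 of 22 on Dhx genes were unmatched (all 1.36%). Of the strongest Dox peaks it was 0 of 52 on Ddx and 1 of 19 on Dhx genes (all 2.8%). The counts of 0 allow shares of up to 13.6% (Dhx, control) and 5.77% (Ddx, Dox). Median folds were close, 4.61 and 4.9 in control and 3.9 and 3.8 in Dox, and the difference between the classes was not tested.

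Related helicases and the cofactors of DEAD and DEAH box proteins gave the setting for the family. The 3 DEAD box genes with other symbols, Eif4a1 and Eif4a2 of translation initiation and Eif4a3 of the exon junction complex, had peaks in both lists, with 0 of 5 control and 2 of 7 Dox peaks unmatched. Of 20 G-patch proteins, which switch on DEAH box helicases, all 20 had peaks in both lists, with 8 of 81 control and 18 of 81 Dox peaks unmatched; the highest control folds were on Sugp2 (19.7) and Son (18). Of 21 MIF4G proteins and other cofactors of DEAD box helicases, 18 had peaks in both lists, Magoh and Patl1 in Dox alone and Pdcd4 in neither, with 4 of 59 control and 18 of 69 Dox peaks unmatched; the highest control folds were on Nom1 (24.8) and Eif4g3 (20.3).
Of 11 other superfamily 2 helicases, among them the DNA translocase Fancm, 5 had peaks in both lists and Ascc3 and Skiv2l in Dox alone. Dqx1, Ifih1, Tdrd9 and Ythdc2 had peaks in neither. Unmatched were 1 of 17 control and 6 of 21 Dox peaks of this list, and Dicer1 (27.9) and Fancm (22.9) had its highest control folds. Of 9 superfamily 1 RNA helicases, 8 had peaks in both lists and Helz2 in neither, with 6 of 29 control and 15 of 37 Dox peaks unmatched. Mov10 (21.3) and Znfx1 (16.9) had the highest control folds of these. In each of these 5 lists, as in the helicase family, the unmatched share was higher among Dox than among control peaks. Over all peaks of the full tables it was 29.1% for Dox and 19.3% for control.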

How the data were processed

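m6A sequencing of 8 libraries was processed by the authors; the build was mm10, and the tools included TopHat2 2.1.1 and FastQC 0.11.5, per the submitters' processing notes. The names of the deposited tables point to exomePeak as the caller. Its version and settings and the gene annotation are not stated there. Messenger RNA was sonicated and libraries were stranded, per the labels' protocols. The deposited tables give each peak's fold as a ratio of IP over input, its p-value, and the log10 of p and of FDR, which were taken as scores, per the file headers. The shorter deposited lists were checked to hold exactly the table's peaks that pass a p of 1e-05 and a fold of 2.

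Identifiers were matched to RefSeq protein-coding genes (GRCm38.p6) by strand and by the gene holding at least 50% of their peak midpoints, which named 10679 of 13110 (81.5%); 6 helicase genes took the strand of their peaks. Where several identifiers fell in 1 gene, that with most peaks was used; 1 further identifier in Ddx5 was left out. Overlap needed 1 exonic nt on the same strand and was tested on simulated peaks. Positions were read for genes of at least 3000 nt, which left out Ddx28. Intervals are exact (Clopper-Pearson, 95%), cover counting error alone and treat each peak as independent; a count of 0 was bounded at 3 counts. Nothing in the labels says whether replicates came from separate cultures. Helicase genes named with values had peaks in 1 condition, or an unmatched peak with log10 FDR at or below -5. Others had 1 of the 6 highest folds per list, the 6 highest peak numbers, or 1 of 8 strong 5′ end peaks. Ddx27, Ddx28, Ddx31, Ddx43, Ddx46, Ddx56, Ddx58, Dhx8, Dhx29, Dhx34 and Dhx36 were added after their values were seen. From each other list, genes with peaks in 1 condition, genes without a peak and the 2 highest control folds were named. The genes and lists were chosen with earlier results of these data known. Python 3.11.15, numpy 2.4.6, pandas 2.3.3, scipy 1.17.1 and matplotlib 3.10.9 were used.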

Additional observations from a re-analysis of the deposited data

How the results depend on the processing

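Shares here are of helicase peaks that no peak of the other condition overlaps. No paired analysis was possible because each deposited value pools both replicates of its condition; for the same reason no replicate could be left out. With the shorter lists, 2 genes had Dox peaks alone (Ddx58 and Dhx9) and Dhx40 in place of Dhx58 had a control peak alone. The Dox share was then 10.3% (all Dox peaks 22.3%), with 4.62% for Ddx. The control share of Dhx was 9.09% (all control peaks 24%). With a log10 FDR of -5 or less asked of both lists, 1 gene (Ddx58) had Dox peaks alone and the control share was 5.61% (all 21%), with 6.06% for Dhx. With the limit on the list that holds the peaks alone, control shares were 3.74%, 4.05% (Ddx) and 3.03% (Dhx) (all control peaks 7.56%). Dox shares were 8.49%, 5.41% and 15.6% (all Dox peaks 11.6%). With folds of at least 4, 3 genes (Ddx43, Ddx56 and Dhx58) had control peaks alone and 1 (Ddx1) Dox peaks alone, and the control share was 30.4% (all 45.7%), with 30.8% for Ddx, now above the Dox share of 16.1% (all 31.6%). These limits leave fewer peaks in both lists, and the cause was not tested further. Overlap of 50% of the shorter peak, overlap of whole spans, every identifier in a gene and 5′ windows of 300 and 1000 nt moved none of these values beyond its interval or 1.5 times, nor did any setting the number of genes with peaks in both (39 to 47). The settings for Ddx and Dhx apart, and the count within 200 nt of the 5′ end, were chosen after the data were seen. How far sequencing depth limits the calls is unknown.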
